A study of Drosophila melanogaster with 10 samples.

Results

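The antisense piRNA positions least reduced by depletion of Armitage (Armi) numbered 708 of the 610009 consensus positions profiled in OSCs, a line of cultured somatic cells from the Drosophila melanogaster ovary. A position was selected where its antisense coverage averaged at least 100 over the 3 siLuc libraries and where the mean of the 3 siArmi libraries was at least 10% of that value. A total of 187881 positions in 54 of 122 consensus elements met the first limit, and the 708 made up 0.377% of them. Coverage is the number of small RNA reads over a position, scaled by the authors to 1000000 miRNA reads, and the share left is the siArmi value in percent of the siLuc mean. These 6 libraries came from wildtype OSCs transfected at 0 and 48 h with an siRNA against luciferase (siLuc) or armitage (siArmi) and harvested at 96 h. Since both limits were set on them, everything drawn from the siLuc and siArmi libraries, sense strand included, is given as a description with no test.

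The response to flamenco silencing was read from 4 libraries that the selection did not use. They came from a clonal OSC line that is wildtype except for UAS sites on both alleles upstream of the flamenco promoter. There were 2 libraries of cells expressing Gal4 alone and 2 of cells expressing Gal4 fused to the Panoramix silencing domain (Gal4-Panx-IDR), collected on days 6 and 7 and called Gal4-Panx-IDR 1 and 2 here. The Gal4-Panx-IDR cells were sorted for reduced GFP from a co-silenced cassette and the Gal4 cells were not, so sorting and silencing cannot be told apart.

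Piwi-interacting RNAs (piRNAs) guide Piwi proteins to transposon transcripts, and those antisense to a transposon can pair with its RNA. In somatic cells of the fly ovary most of them are cut from long single-stranded precursors, chiefly from the flamenco cluster. Armi is an RNA helicase that brings such precursors to the site of cleavage at the mitochondrial surface. Panoramix acts downstream of Piwi in transcriptional silencing, and its tethered silencing domain can repress a nearby promoter without piRNAs.

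Antisense coverage was lower in siArmi at all 708 positions. The highest share left was 24.5%, in roo, and the median share left was 11.1% at the selected positions and 4.43% over all 187881. A share of at least 15% was found at 44 positions, of at least 20% at 12 and of at least 30% at 0. Many positions lay close to the limit: 331 had 10 to 11% left, and 994 positions just outside it had 9 to 10% left. On the level axis, 65 of 2828 positions with a siLuc mean of 100 to 110 were selected, and 76 of 3266 with a mean of 90 to 100 would have passed the limit on the share.

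**Figure D1:**
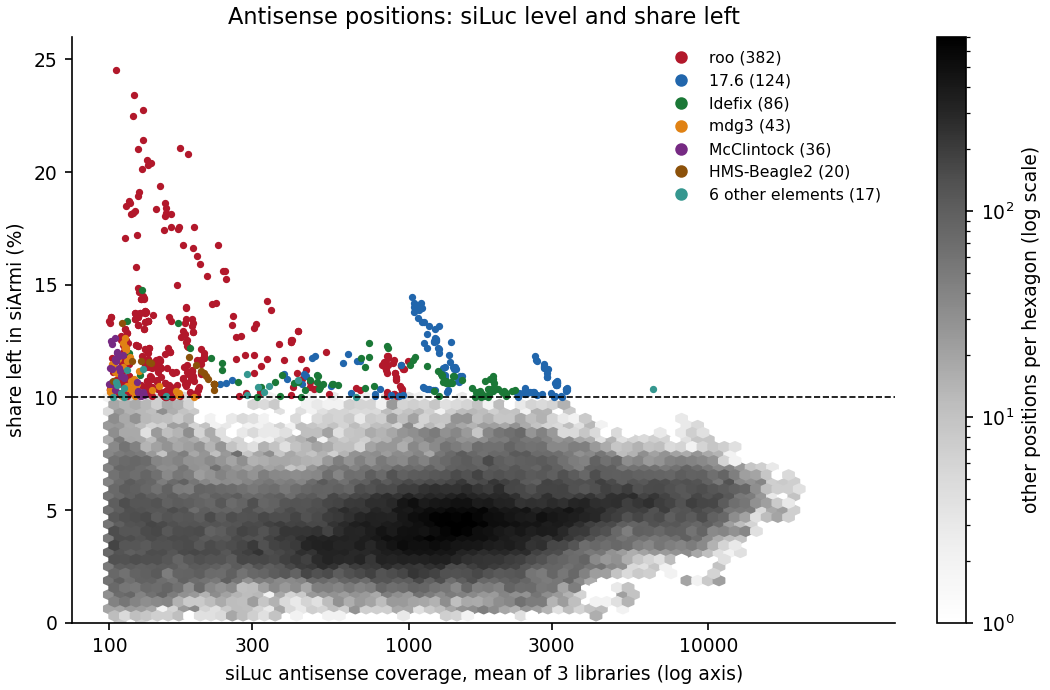
Share left in siArmi (mean of 3 libraries, in percent) against siLuc antisense coverage (mean of 3 libraries, log axis) for every position with a siLuc mean of at least 100. Coloured points are the 708 selected positions by element, grey hexagons count the other positions and the dashed line is the limit of 10%. Points above 15% belong to roo, and most selected positions lie at low siLuc coverage except those of 17.6 and Idefix.

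The selected positions were weakly covered. Their median siLuc coverage was 182, against 1243 at the other positions, and ranged from 100.05 to 6530. Of the positions with a siLuc mean of 100 to 150, 2.40% were selected, a share that was 0.422% at 200 to 500, 0.179% at 1000 to 2000 and 0.00612% at 5000 or more. The median share left over all positions did not follow the same order and was 4.32% in the lowest and 5.39% in the highest of these ranges. Few reads stood behind a selected position after depletion. From the smallest step between values, the siArmi libraries held 586560, 875165 and 725180 miRNA reads, and the median number of piRNA reads over a selected position was 16, 19 and 18. In the siLuc libraries the median was 257 to 275.5 reads. Neighbouring positions are covered by the same reads of 24 to 35 nt, so they are not independent of each other.

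Agreement between the siArmi libraries was partial. All 3 were at 10% of the siLuc mean or above at 111 of the 708 positions, 2 of them at 402 and 1 at 195. Of the 111, 70 lay in roo, 39 in 17.6 and 2 in Idefix. No selected position of mdg3 or McClintock reached 10% in all 3 libraries. The siLuc libraries differed as well, with a mean antisense coverage over all consensus positions of 681, 669 and 487 in libraries 1 to 3, which makes the third library weigh less in the siLuc mean. Without it, 369 positions met both limits, 344 of them among the 708. The number was 1192 without siLuc 1, 1245 without siArmi 2 and 1110 without siArmi 3.

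A set of 12 elements held all of the positions, and 5 of them held most. The BEL/Pao retrotransposon roo had 382 (4.46% of its 8561 positions at 100 or more), the Gypsy-superfamily elements 17.6 and Idefix had 124 (1.72% of 7207) and 86 (1.22% of 7035), and the LTR retrotransposons mdg3 and McClintock had 43 (1.34% of 3203) and 36 (2.10% of 1715). HMS-Beagle2 had 20 and gypsy10_new 5. There were 3 each in ZAM, springer and the telomeric TART-A, 2 in mdg1 and 1 in a further Gypsy-superfamily element. No position was selected in gypsy, where the highest share left at any of 7442 positions was 6.67%. The same held for gtwin (highest 9.63%), HMS-Beagle (9.59%), Doc (8.87%), copia (6.65%, at only 29 positions) and flea (6.52%). In all, 382 of 9932 BEL/Pao positions, 323 of 150173 Gypsy-superfamily positions and 3 of 5606 telomeric LINE positions were selected, and 0 of 20773 positions of the other LINEs.

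The elements differed in their overall share left and in the level of their selected positions. In 17.6 and Idefix the median share left over all positions was high, 6.75% and 6.69%, the highest among the elements with at least 1000 positions at 100 or more. In roo it was 5.01%, which ranked 9 among those elements. The median siLuc coverage at the selected positions was 148 in roo, 116 in mdg3 and 109 in McClintock, but 1322 in 17.6 and 1258 in Idefix.

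At the roo positions antisense coverage was 266, 252 and 185 in the siLuc libraries and 26.5, 24.7 and 32.7 in the siArmi libraries. The share left was 11.9% ± 1.79 (SD, n = 3 siArmi libraries), against 5.01% ± 0.14 at the other roo positions. At the 17.6 positions coverage was 1998, 1859 and 1344 in siLuc and 221, 172 and 180 in siArmi, a share of 11.0% ± 1.52 against 6.84% ± 0.72 in the rest of the element. Both limits were set on these libraries, so that a higher share at the selected positions is built in. Idefix had 1287, 1275 and 830 in siLuc and 154, 96.3 and 109 in siArmi, or 10.6% ± 2.70 left. The McClintock positions had 129, 118 and 93.9 in siLuc and 19.5, 9.68 and 8.04 in siArmi, so that their share rested on siArmi library 1.

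Positions were also chosen by the same limits from 2 replicate numbers and read in the third, as siArmi over siLuc of that number. The numbers do not tie the libraries to a shared day or culture, and number 3 gave the highest shares at chosen and other positions alike, where siLuc 3 had the lowest coverage. The roo positions chosen this way kept 8.68%, 7.86% and 17.3% in the libraries numbered 1, 2 and 3 that had not chosen them. The other roo positions kept 4.56%, 4.51% and 6.33%. For 17.6 the values were 9.43%, 7.92% and 12.3%, against 6.87%, 5.82% and 8.21%, and for Idefix 8.78%, 6.98% and 11.2%, against 6.74%, 5.62% and 7.52%. In these 3 elements the chosen positions were above the others in each of the 3 left-out numbers, although they fell below 10% in numbers 1 and 2. The mdg3 positions kept 4.75%, 5.67% and 6.38%, against 5.44%, 5.26% and 6.72% elsewhere in mdg3. McClintock positions kept 5.80%, 5.23% and 7.00%, against 5.76%, 5.12% and 6.79%. In mdg3 the chosen positions were above the others in 1 of 3 left-out numbers, and in McClintock they were above in all 3 but by far less than the numbers differed from each other. With each of the 9 pairs of 1 siLuc and 1 siArmi library left out, an alternative chosen after seeing the data, the chosen positions were above the others in 9 of 9 pairs in roo, 17.6 and Idefix, in 4 of 9 in mdg3 and in 7 of 9 in McClintock. In roo they then kept 7.62 to 17.3%, against 4.29 to 6.48% at the others. The 9 pairs re-use the same siLuc and siArmi libraries, so they are not independent of each other and remain a description.

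**Figure D2:**
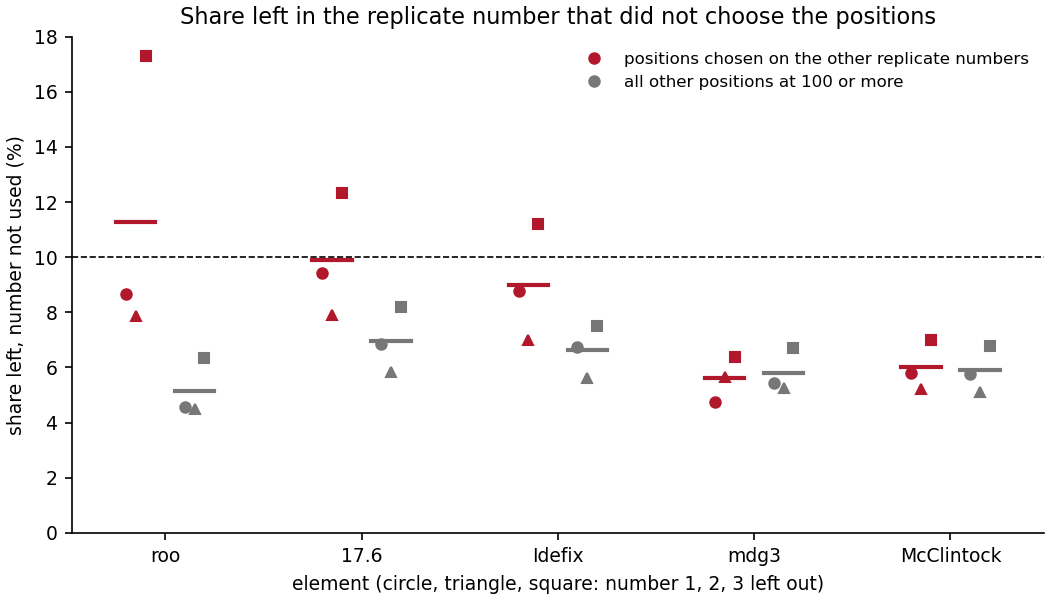
Share left (siArmi in percent of siLuc of the same number) in the replicate number that was not used to choose the positions, for 5 elements. Circles, triangles and squares stand for numbers 1, 2 and 3 left out, bars for their mean, red for positions chosen on the other numbers and grey for all other positions of the element. Red lies above grey in roo (17.3% against 6.33% for number 3), 17.6 and Idefix and close to grey in mdg3 and McClintock, and the dashed line marks 10%.

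Along the consensus the 708 positions formed 66 runs when positions at most 10 nt apart were joined. Their median span was 6 nt and their longest 69 nt, and 54 of the 66 were shorter than the shortest read kept. The 10 runs with the most positions held 370 positions (52.3%). Many runs lay in dips of the siLuc profile: coverage within 30 nt on either side was higher than in the run for 51 of 66 runs, with a median of 1.60 times, and for 21 of 23 runs of roo, with a median of 3.14 times. It was higher for only 1 of 7 runs of McClintock (median 0.94 times), and the median was 1.04 times in mdg3 and 1.16 times in 17.6. The share is taken over siLuc coverage, so the choice of positions favours such dips. Stretches without selected positions were not compared. The share left in these flanks had a median of 7.33%, and it lies below that of the runs by the choice of positions. Flanks were not cleared of selected positions, so a flank can hold part of a neighbouring run.

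The longest runs of roo lay side by side. In the run at nt 5848 to 5916 of the roo consensus (55 positions) coverage was 146, 154 and 113 in siLuc and 17.4, 8.60 and 19.5 in siArmi. The run at nt 5939 to 5995 (49 positions) had 174, 163 and 126 in siLuc and 11.9, 19.0 and 21.8 in siArmi. Each run had 1 siArmi library below 10% of the siLuc mean, siArmi 2 in the first and siArmi 1 in the second. In their flanks, each of which reaches into the other run, siLuc coverage was 718 and 573, and 5.11% and 4.63% was left.

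Runs at nt 220 to 253 and nt 8884 to 8917 of roo (31 positions each) held identical values, because they are copies in the terminal repeats at both ends of the element and a read that fits both was counted as 0.5 at each. Over all elements 103 of the 708 positions lay in terminal repeats, which were recognised here by equal coverage at both ends, and 44 were second copies, so that 664 positions are distinct. The roo runs with the largest share left among those of at least 20 positions were nt 4528 to 4555 (28 positions, 14.0% ± 7.87, SD over 3 siArmi libraries) and nt 2296 to 2323 (28 positions, 14.0% ± 3.40), followed by the terminal repeat runs (12.4% ± 4.30) and nt 8321 to 8352 (28 positions, 12.1% ± 1.92). In nt 4528 to 4555 the siArmi libraries stood at 23.8, 6.41 and 24.4 against a siLuc mean of 130, and siArmi 2 was thus well below the other siArmi libraries. In nt 2296 to 2323 and nt 8321 to 8352 all 3 siArmi libraries were above 10%. A further run at nt 2060 to 2084 (25 positions) was more strongly covered, at 1026, 934 and 681 in siLuc and 83.5, 91.1 and 124 in siArmi.

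**Figure D3:**
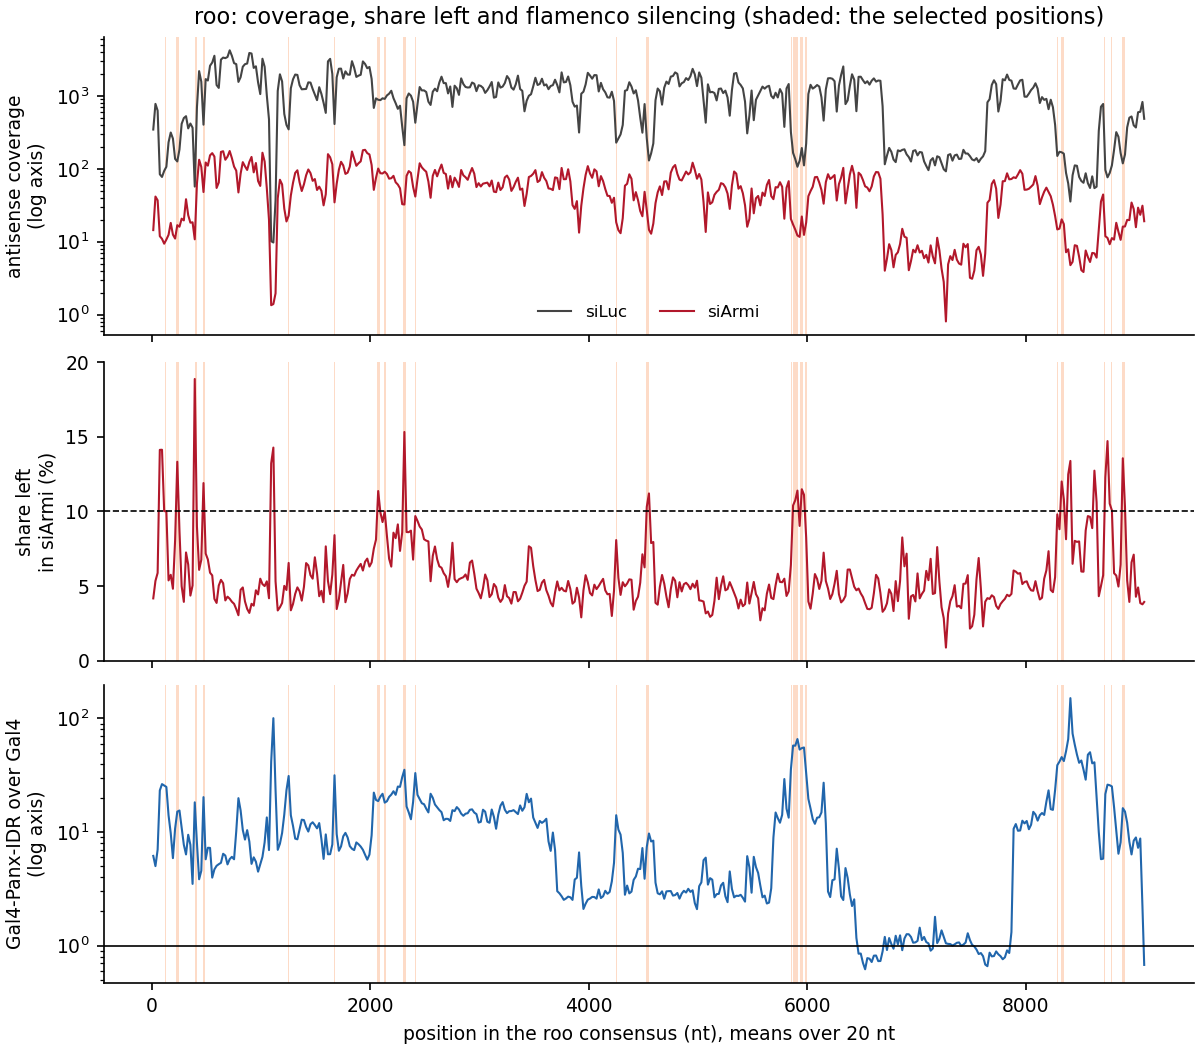
Profile of roo in means over 20 nt, with the position in the consensus (nt) on the horizontal axis. The panels show antisense coverage in siLuc and siArmi (group means, log axis), the share left in siArmi in percent (dashed line at 10%) and antisense coverage in Gal4-Panx-IDR over that in Gal4 (log axis, line at 1), and the shading marks the 382 selected positions. Many shaded positions lie in dips of siLuc coverage, and nt 6751 to 7500, which is covered as weakly (147), holds none and stays near a ratio of 1.

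The run with the most positions lay in 17.6, at nt 1049 to 1113 of its consensus (65 positions). Coverage there was 1283, 1269 and 831 in siLuc and 155, 115 and 133 in siArmi, and all 3 siArmi libraries were above 10% of the siLuc mean (13.8%, 10.2% and 11.8%). A second 17.6 run at nt 1184 to 1222 (30 positions) had 3530, 3183 and 2427 in siLuc and 409, 290 and 283 in siArmi, and only siArmi 1 was above 10%. The 5 runs of 17.6 lay between nt 831 and 1222. The share left in their flanks had a median of 9.44%, but some of these flanks hold selected positions of the next run. There a share of at least 10% is set by the choice. Idefix had its largest runs at nt 5333 to 5358 (24 positions, 10.6% ± 3.79) and nt 6078 to 6097 (20 positions, 10.4% ± 1.63). Over all 66 runs, 8 were at or above 10% in each of the 3 siArmi libraries, 27 in 2 and 31 in 1.

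**Figure D4:**
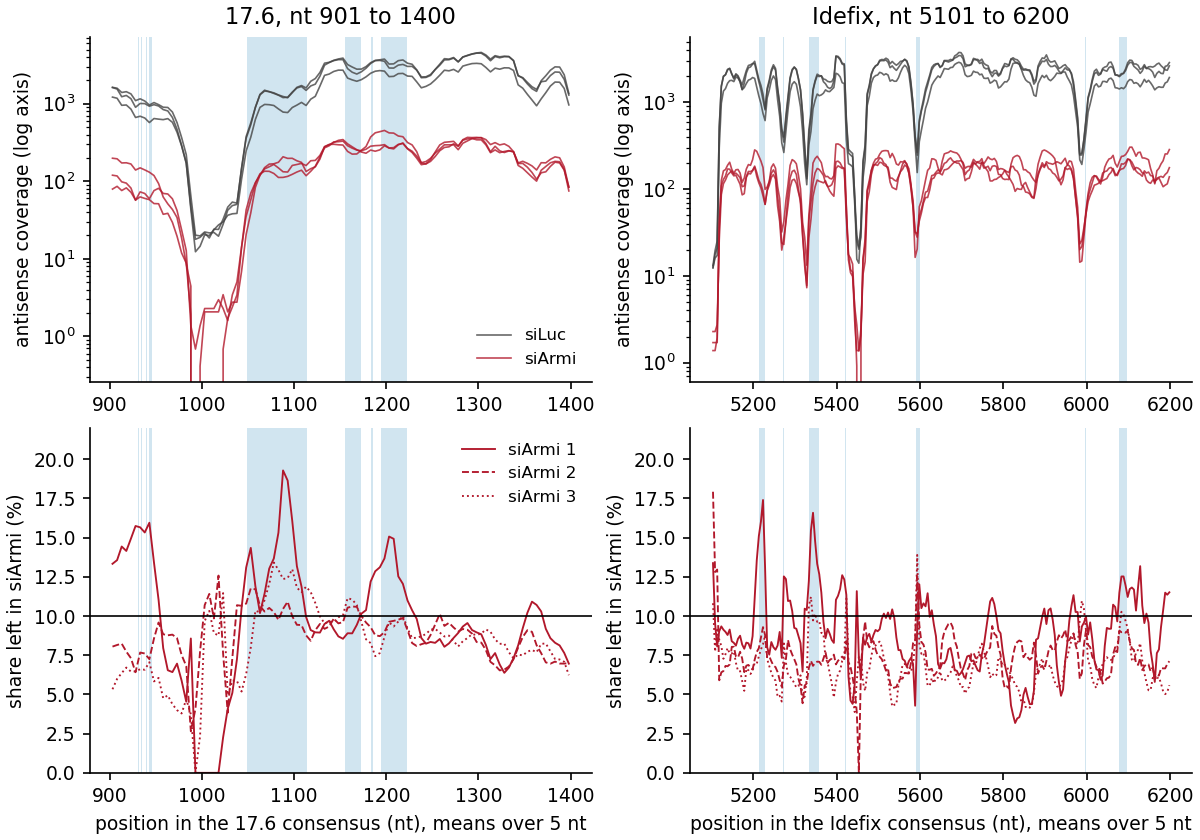
Antisense coverage in each siLuc and siArmi library (log axis, top) and the share of the siLuc mean left in each siArmi library in percent (bottom) along parts of the 17.6 and Idefix consensus, in means over 5 nt. Shading marks the selected positions and the horizontal line 10%. At nt 1049 to 1113 of 17.6 the means of the siArmi libraries over the run are 13.8%, 10.2% and 11.8%, and siArmi 1 leads at several of the Idefix runs.

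On the sense strand the selected positions kept a low share, which came mainly from roo. Over the 708 positions sense coverage was 67.4 ± 11.5 (SD, n = 3) in siLuc and 2.28 ± 0.31 in siArmi, so that 3.39% ± 0.46 was left, against 11.1% ± 1.60 of the antisense coverage. At the other 187173 positions 6.39% ± 0.41 of sense and 4.86% ± 0.35 of antisense coverage was left, where the higher antisense share at the selected positions is fixed by their choice. The low sense share belonged to roo as a whole, with 2.98% ± 0.67 left at its selected and 2.23% ± 0.06 at its other positions. Without roo, 6.58% ± 1.48 of sense coverage was left at the selected and 6.65% ± 0.43 at the other positions, which differ by less than the spread between libraries. The antisense strand made up 89.9% ± 0.37 of the coverage at the 708 positions in siLuc and 96.6% ± 0.68 in siArmi.

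Single positions gave a like picture. Sense coverage was at least 10 in siLuc at 473 of the 708 positions. Of these, 21 (4.44%) kept at least 10% of it, all of them in 17.6, and 143 (30.2%) were listed at 0 in every siArmi library. Of the 46534 other positions with sense coverage of at least 10, 18.1% kept at least 10% and 11.9% were at 0 in every siArmi library. Within roo the shares were 0 of 377 selected and 1.55% of 7877 other positions, and outside roo 21.9% of 96 selected and 21.4% of 38657 other positions. In roo, sense coverage at the selected positions was 122, 122 and 87.5 in siLuc and 3.80, 3.64 and 2.45 in siArmi. In 17.6 it was low at the selected positions, at 11.0, 7.97 and 9.33 in siLuc and 0.962, 0.544 and 1.41 in siArmi. This is 10.3% ± 4.61 left, nominally about the share of the antisense strand. The smallest step between values was 0.852, 0.571 and 0.689 in siArmi libraries 1 to 3, so these sense values lie near the floor. In the run at nt 1184 to 1222 sense coverage was 0, 0 and 2.80 in siArmi. The sense share of 17.6 thus rests on very few reads. The other 17.6 positions, with a mean sense coverage of 27.8 in siLuc, kept 4.34% ± 0.25 of it. Idefix and McClintock had next to no sense coverage there (0.109 and 0.226 in siLuc).

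When flamenco was silenced, antisense coverage at the roo positions was many times higher, whereas at the 17.6 and Idefix positions it was lower per miRNA read but not when scaled to total transposon signal. At the roo positions antisense coverage was 491 and 501 in the Gal4 libraries and 12867 and 15806 in the Gal4-Panx-IDR libraries, 28.9 times the Gal4 mean. At each of the 382 roo positions the lower Gal4-Panx-IDR library exceeded the higher Gal4 library, and the ratio of the group means ran from 7.84 to 76.5. Among all positions with a siLuc mean of at least 100, both Gal4-Panx-IDR libraries were above both Gal4 libraries at 6.59% and below both at 83.2%. Of the 326 selected positions outside roo, 17 were above and 232 below in this way. The 17.6 positions stood at 3902 and 4609 in Gal4 and 2966 and 2802 in Gal4-Panx-IDR, 0.678 times the Gal4 mean, and the Idefix positions at 2868 and 3979 against 2341 and 2450, or 0.70 times. These groups do not overlap, but their difference is small beside that of roo, and the total transposon signal itself was lower in Gal4-Panx-IDR. Scaled to that total, the ratio was 1.09 in 17.6 and 1.13 in Idefix, and 45.8 in roo. HMS-Beagle2 was at 334 and 302 against 72.4 and 63.0, or 0.213 times (0.339 when scaled). In mdg3 the libraries of the groups lay closer together (103 and 123 against 132 and 168) but did not overlap. The ratio there was 1.33, and 2.11 when scaled, against an unscaled 1.13 at the other mdg3 positions. In McClintock (29.0 and 23.4 against 14.9 and 20.8) the ratio of 0.681 became 1.07 when scaled.

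Averaged over all 708 positions, coverage was 1330 and 1600 in Gal4 and 7764 and 9337 in Gal4-Panx-IDR, 5.84 times the Gal4 mean. The other 187173 positions averaged 2757 and 3245 against 1603 and 1835, or 0.573 times. Scaled to total transposon signal the ratios were 9.31 and 0.914. The pooled rise came from roo: without it the remaining 326 positions stood at 0.681 times and the other positions at 0.41 times the Gal4 mean. In an exact two-sided permutation test each of these 4 unscaled differences had p = 0.33, the smallest p that 2 libraries against 2 allow.

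Windows of 100 nt were tested across all elements with limma on log2(coverage + 1), at a Benjamini-Hochberg adjusted p of 0.05. Nothing in the sources says that libraries of a group came from separate cultures, so p-values measure only the spread between these libraries. Of 3416 windows that averaged 10 or more on the antisense strand, 1768 (51.8%) were lower and 196 (5.74%) were higher in Gal4-Panx-IDR. The median log2 change was -0.84 over all windows. A total of 9 windows held at least 25 selected positions. All 7 of roo rose and both of 17.6 fell. The groups did not overlap in any of the 9, as in 76.9% of all windows. Among the 64 windows with at least 1 selected position 23 rose, all of roo, 17 fell and 24 did not pass.

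Among the 9 windows with at least 25 selected positions the largest rises were at nt 5901 to 6000 of roo, with 334 and 333 in Gal4 and 14695 and 19139 in Gal4-Panx-IDR (log2 change 5.65 ± 0.23, SE), nt 8301 to 8400 (308 and 323 against 13840 and 16751, 5.59 ± 0.23) and nt 5801 to 5900 (829 and 949 against 19489 and 24020, 4.61 ± 0.22). In each of them the groups lie far apart. The largest rise of all roo windows, 6.00 ± 0.23, was at nt 8401 to 8500, which held no selected position. The smallest of the 7 was 2.61 at nt 401 to 500. In 17.6 the windows fell by 0.56 ± 0.24 at nt 1001 to 1100 (limma adjusted p = 0.030) and by 0.61 ± 0.22 at nt 1101 to 1200 (limma adjusted p = 0.011). Prior degrees of freedom were infinite in this fit, so each window was tested against the shared spread at its level. With limma without the trend the 7 roo windows still passed, with a largest adjusted p of 0.000942, and neither 17.6 window did (adjusted p = 0.106 and 0.086). Scaled to total transposon signal, which moved the median change of all windows to -0.18, both 17.6 windows turned to small rises (0.11 and 0.07) that did not pass. Neither window passed without Gal4 2, and 1 of them passed without either Gal4-Panx-IDR library.

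The rise of roo was not limited to the selected positions. Of the 91 roo windows tested 78 were higher and 0 lower, and among the 68 that held no selected position 55 were higher, with a median log2 change of 2.20. The 23 with at least 1 selected position had a median of 3.68. The difference itself was tested within each of the 5 elements with at least 25 selected and 25 other positions, as the change of the log2 ratio of their mean coverages. It passed in 1 of 5 (20%), roo. The roo ratio rose by 1.80 ± 0.10 (SE, 95% interval 1.53 to 2.08, limma adjusted p = 0.000342), and both Gal4-Panx-IDR libraries were above both Gal4 libraries. Such a lack of overlap was not particular to roo: it was also found in Idefix (higher) and 17.6 (lower), but not in mdg3 and McClintock. The other roo positions stood at 1342 and 1511 in Gal4 and 10625 and 12920 in Gal4-Panx-IDR, 8.25 times the Gal4 mean. Selected positions were thus well below the others in Gal4 and above them in Gal4-Panx-IDR. Without Gal4-Panx-IDR 2 the change was 1.80 with an adjusted p of 0.068.

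In 17.6 and Idefix the selected positions did not differ from the rest of the element beyond the error. The change of the log2 ratio was -0.07 in 17.6 (95% interval -0.32 to 0.18, limma adjusted p = 0.570) and 0.29 in Idefix (95% interval -0.00095 to 0.58, limma adjusted p = 0.126). It was 0.22 in mdg3 (-0.28 to 0.71, limma adjusted p = 0.481) and 0.05 in McClintock (-0.95 to 1.04, limma adjusted p = 0.903), where few reads stood behind a position in the tethering libraries, which held 87066 to 151205 miRNA reads. Without Gal4-Panx-IDR 1, 17.6 passed with a change of -0.12 (limma adjusted p = 0.038).

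**Figure D5:**
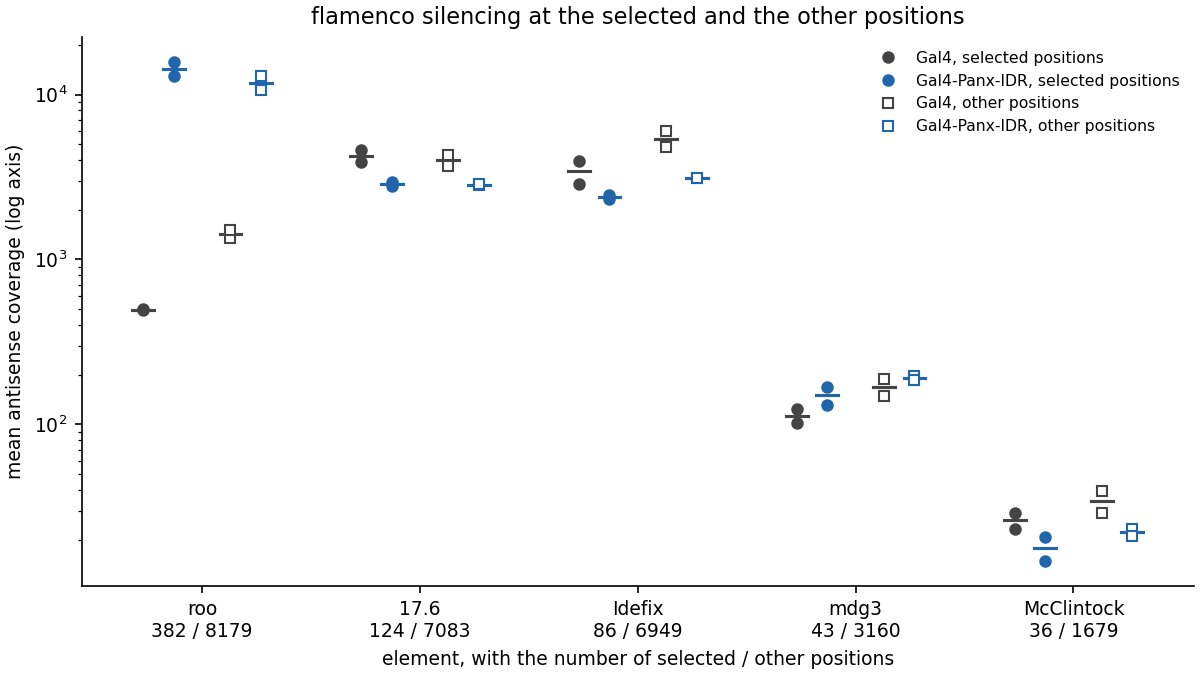
Mean antisense coverage (log axis) of the selected (filled circles) and the other positions (open squares) of 5 elements in the 2 Gal4 libraries (grey) and the 2 Gal4-Panx-IDR libraries (blue), with bars at the group means and the numbers of selected and other positions below. In roo the selected positions go from 496 to 14337 and the others from 1427 to 11772. In 17.6 and Idefix selected and other positions lie lower in Gal4-Panx-IDR per miRNA read, and scaling to total transposon signal turns the ratio at the selected positions to 1.09 and 1.13.

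Weakly covered positions of roo differed in their response. The selected positions with a siLuc mean of 100 to 300 (318 positions) had a median ratio of Gal4-Panx-IDR to Gal4 of 38.7, and none was under 2. The 1347 other roo positions of that level had a median ratio of 1.23, and 883 of them (65.6%) were under 2. Most of the latter, 693, lay at nt 6751 to 7500 of roo, a stretch picked out after its values were seen. There coverage was 162, 161 and 119 in siLuc and 7.48, 6.93 and 6.50 in siArmi, with 4.73% left and no selected position. Its Gal4 libraries stood at 302 and 317 and its Gal4-Panx-IDR libraries at 357 and 326, so that all 4 lie close together, at a ratio of 1.10. The 653 other positions of 100 to 300 outside that stretch had a median ratio of 9.38, the 531 positions with a siLuc mean under 100 one of 34.1, and all 8179 other positions one of 6.46. The part of the siLuc level in the response was not tested. With only other positions of 100 to 300 entering the test within roo, an alternative chosen after seeing the data, the change was 1.83. All 382 selected positions entered it, also those above 300, and so did the stretch at nt 6751 to 7500. The ratio of the mean coverages was 8.14 at these other positions and 14.8 at those outside the stretch. It was 28.9 at all selected positions and 35.5 at the selected positions of 100 to 300. The stretch lowers the ratio of the other positions, so the size of the change of 1.83 depends in part on it. The change was not tested without the stretch.

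Along roo, the share left after Armi depletion and the response to flamenco silencing can be set side by side. At nt 8251 to 8500, which held 34 of the positions, 7.98% was left and the ratio was 44.4. At nt 4501 to 4750 (28 positions) 4.88% was left and the ratio was 3.74. The share left was highest at nt 2251 to 2500 (8.65%, 39 positions) and nt 2001 to 2250 (8.27%, 33 positions), with ratios of 19.5 and 19.4. The measures did not rank all parts in the same order. At nt 5751 to 6000, which held 104 of the positions, 5.83% was left and the ratio was 27.9. At nt 3001 to 3250, which held 0, 4.64% was left and the ratio was 14.3. Over the 91 windows of roo the share left and the log2 change had a Spearman rho of 0.56, over 74 windows of Idefix 0.47 and over 75 windows of 17.6 -0.07. These are descriptions, since neighbouring windows share reads. The measures come from different libraries, but a window can be weakly covered in both. Between siLuc coverage and the log2 change rho was -0.11 in roo, -0.37 in Idefix and -0.16 in 17.6. Between siLuc coverage and the share left it was -0.26, -0.23 and 0.54 in the same order. The part of coverage in these relations was not tested.

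On the sense strand the selected windows of roo fell when flamenco was silenced. Of 2088 windows tested 363 (17.4%) were lower and 464 (22.2%) were higher. Of the 9 windows with at least 25 selected positions 6 fell, all of roo, and 0 rose (0 also at an unadjusted limma p under 0.05). Scaled to total transposon signal 3 fell and 1 rose, and 3 of the 8 windows of 50 nt with that many selected positions fell. At nt 201 to 300 of roo sense coverage was 653 and 748 in Gal4 and 356 and 248 in Gal4-Panx-IDR (log2 change -1.23 ± 0.21, limma adjusted p = 0.00157). The steepest drop was at nt 4501 to 4600, from 78.3 and 135 to 28.5 and 20.4 (-2.05 ± 0.40, limma adjusted p = 0.00307). The remaining roo window, nt 5901 to 6000, had 45.0 and 102 against 39.5 and 39.4 and did not pass. Among the roo windows without selected positions 60 of 68 fell, with a median change of -1.55, and among those with at least 1 selected position 20 of 23 fell, with a median of -1.50. With 1 Gal4-Panx-IDR library left out, the changes of the 6 windows stayed negative, at -2.28 to -1.49 without Gal4-Panx-IDR 1 and -1.82 to -0.97 without Gal4-Panx-IDR 2. In these smaller fits only 17 and 11 windows in all passed as lower, 1 and 0 of them among the 9.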

How the data were processed

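Small RNAs were sequenced from 10 OSC libraries (3 siLuc, 3 siArmi, 2 Gal4, 2 Gal4-Panx-IDR). The authors trimmed reads with cutadapt, kept those of 24 to 35 nt and aligned them with Bowtie to consensus sequences based on RepBase, keeping reads that fitted 1 consensus at no more than 2 places, each weighted 0.5. The tethering libraries had another 3′ adaptor. The deposited values are coverage per position and strand (signal), scaled to 1000000 miRNA reads. The antisense strand has a minus sign in the deposited tables, which was dropped here. Reads shared between elements are lost by this, and values move with the miRNA content of a library. All sample columns were used.

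Coverage is not a count, so limma 3.58.1 in R 4.3.3 was used on log2(mean coverage + 1), with a trend, in 100-nt windows with a mean of at least 10, and without a trend for the ratios within elements. The test was checked on simulated data. Other steps used scipy 1.17.1, pandas 2.3.3, matplotlib 3.10.9 and numpy 2.4.6 under Python 3.11.15. Replicates differed by more than sampling noise. The elements and runs named are those with the most selected positions (10 of each), the 5 runs of at least 20 positions with the largest share left, the elements named with their piRNAs in the study, and the 3 largest rises and drops past the threshold whose groups did not overlap. The positions and lists were chosen with earlier results of these data known. Alternatives were other limits, pseudocounts (0.1 and 10), windows of 50 nt, no filter, no trend, scaling to total transposon signal and each library left out. Consensus sequences were not used here.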

Additional observations from a re-analysis of the deposited data

How the results depend on the processing

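The number of selected positions followed the limits. It was 65477 at a share of 5%, 12 at 20%, 1500 at a siLuc mean of 50, 315 at 200 and 369 to 1245 with 1 siRNA library left out. Scaled to total transposon signal it was 187638, since that total itself fell with Armi depletion. Scaling gave 657 higher antisense windows in all, 0 lower windows with at least 25 selected positions, log2 changes of 0.11 and 0.067 in the antisense windows of 17.6 at nt 1001 to 1100 and nt 1101 to 1200, and 0.49 in the sense window at nt 1001 to 1100. On the sense strand it gave 116 lower and 699 higher windows, of which 3 and 1 held at least 25 selected positions. Windows of 50 nt gave 3307 lower and 371 higher antisense windows, 714 higher sense windows and 3 lower sense windows with at least 25 selected positions. Without the trend, 0 such antisense windows and 189 sense windows in all were lower. Counting windows with at least 1 selected position gave 17 lower and 23 higher (antisense) and 20 and 1 (sense), and with at least 50 gave 1 and 1 (antisense) and 0 lower (sense). With 1 tethering library left out, 0 to 2 antisense windows with at least 25 selected positions were lower. On the sense strand 0 to 7 were then lower and 0 to 1 higher, with 11 to 416 lower and 102 to 502 higher windows in all. Within elements 0 to 2 then passed, with a change of 1.73 to 1.87 in roo (1.80, adjusted p = 0.068, without Gal4-Panx-IDR 2) and of -0.33 to 0.42 in McClintock. McClintock also turned to -0.044 against other positions of 100 to 300 and to -0.23 with positions at 10% in at least 2 siArmi libraries, both chosen after seeing the data. The pooled ratio at the selected positions was 9.31 when scaled, 11.9 as a median over positions and 0.681 without roo, chosen after seeing the data. Scaling, added by element after seeing the data, turned the ratio at the selected positions of 17.6, Idefix and McClintock to 1.09, 1.13 and 1.07. The 7 higher roo windows passed with each tethering library left out and under each pseudocount. No paired analysis was possible because the siRNA libraries entered no test and the Gal4 and Gal4-Panx-IDR libraries share no replicate numbers in the labels. In the siArmi libraries about 16 to 19 reads stood behind a selected position, so single positions near the limit are not resolved. Where libraries were left out, an arm with 1 library was assumed to vary like the other arm.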

Other observations

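A further 531 positions of roo had a siLuc mean under 100 and could not be selected. Their antisense coverage averaged 162 in Gal4 and 5923 in Gal4-Panx-IDR, 36.6 times as much, with a median ratio of 34.1 over positions, and 454 of them (85.5%) were at least 10 times higher. These values are descriptions without a test.

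Sense coverage at the selected positions of HMS-Beagle2, a Gypsy-superfamily element, was 0 and 0.453 in Gal4 and 2.98 and 5.11 in Gal4-Panx-IDR, while its antisense coverage there dropped. These sense values lie at the floor. The smallest step between values was 5.74 and 4.53 in the Gal4 and 3.31 and 4.26 in the Gal4-Panx-IDR libraries. As 18 of the 20 positions form 1 run of 18 nt, very few reads can make up such means. At the selected positions of springer, which carries mostly sense piRNAs in these cells, sense coverage was 517 ± 36.4 (SD, n = 3) in siLuc and 35.3 ± 9.05 in siArmi, or 6.83% left, against 10.8% of the antisense coverage. Only 3 springer positions were selected.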
